A study of Mus musculus with 32 samples.

Results

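The genes described here are 10 enzymes that make NADPH, or feed its making, outside the oxidative branch of the pentose phosphate pathway: *Me1*, *Me2*, *Me3*, *Idh1*, *Idh2*, *Tkt*, *H6pd*, *Nnt*, *Aldh1l1*, and *Mthfd2*. They were found by matching these symbols to the Ensembl rows of the count table. Each symbol matched 1 row, so the members were 10 of the 34453 rows. All 10 passed the filter on low counts in every comparison.

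NADPH is the electron donor that cells use to keep glutathione and thioredoxin reduced and to build lipids. In the cytosol it comes from the oxidative pentose phosphate pathway, from malic enzyme 1, from isocitrate dehydrogenase 1, and from folate-dependent reactions, while mitochondria rely on isocitrate dehydrogenase 2, the transhydrogenase NNT, malic enzyme 3, and folate enzymes of their own. Nrf2 is a transcription factor that binds antioxidant response elements and is known to drive several of the cytosolic enzymes. The RPE, the pigmented epithelium behind the photoreceptors, meets a high oxidative load and is known to use reductive carboxylation through isocitrate dehydrogenase.

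RPE RNA of 16 mice labelled *rd1* was analysed, 7 mice at P20 and 9 at P40. By the labels all carried *rd1*, an allele of *Pde6b* known to kill rods early, and no group labelled as wild type was analysed here. In each mouse, 1 eye had received AAV8 with human *NFE2L2* (the Nrf2 gene) under the human *BEST1* promoter together with AAV-Best1-GFP, here called the Nrf2 eye. The control eye of the same animal was injected with AAV-Best1-GFP alone. By the methods, the GFP vector had another capsid than AAV8, and the Nrf2 eye received a larger total dose of vector. Below, the Nrf2 effect means the difference between the eyes, in which Nrf2 and vector load cannot be told apart. The promoter restricts the transgene to the RPE, and the retina was removed before the RNA was taken and amplified, so other cells of the dissected tissue can still be in the libraries. The methods name fewer *rd1* pairs than the labels and also name pairs of CD1, their wild type, at P40. Together, the *rd1* and CD1 pairs that they name at P40 are as many as the 9 pairs labelled *rd1*. The strain at P40 therefore rests on the labels alone. If some P40 mice were CD1, changes with age would also hold differences of strain, which was not tested. Library names also begin with a different letter at each age, and age and that name series cannot be told apart.

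The 32 libraries held between 16548332 and 50542797 estimated reads, with group medians of 30969254 to 38726346. The transgene lay between 1096 and 10483 CPM (reads of a gene relative to the TMM-scaled size of its library) in Nrf2 eyes and at a median of 47.5 CPM at P20 and 0.393 CPM at P40 in control eyes. A pair of P20 libraries stood apart. The library labelled control of mouse 3 held 1109.8 CPM of the transgene, against 155 CPM in the next control eye, while that labelled Nrf2 of mouse 4 held 1096 CPM, against 4882 CPM in the next Nrf2 eye. These libraries were also more alike than any other pair, with a squared difference of 8.14 times sampling noise against at least 49.5 for every other pair. Calls of members between eyes or ages that rest on P20 eyes are therefore also given without mice 3 and 4. Relations to the transgene and calls of other genes are not given in that way. At P40, libraries differed in how levels depended on transcript length. The slope of log2 CPM on log2 transcript length, taken relative to the mean library, was 0.0692 to 0.259 at P20 but −0.506 to 0.225 at P40, and 7 of 9 control eyes and 6 of 9 Nrf2 eyes at P40 lay below every P20 library.

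Markers of other tissues moved with the vector. The summed level of 6 cone markers had a median of 306 CPM in P20 control eyes (range 37.6–900.0) and 29.4 CPM in P20 Nrf2 eyes (range 16.3–79.0), and at P40 a median of 679 CPM (range 258–2073) and 34.9 CPM (range 27.5–226). Of these markers, 2 of 6 fell at P20 and 6 of 6 at P40. The summed level of 7 rod markers had a median of 99.3 CPM in control eyes (range 19.1–424) and 9.98 CPM in Nrf2 eyes (range 6.48–78.5) at P20, and of 147 CPM (range 63.6–532) and 16.975 CPM (range 6.09–116) at P40, where 2 of 7 fell, while none passed at P20. Of 8 RPE markers, 1 fell at P20 and 5 at P40. Their summed level at P20 had a median of 15046 CPM in control eyes (range 6361–24655) and 16994 CPM in Nrf2 eyes (range 11276–28018). At P40 the medians were 35132 CPM (range 10274–64001) and 19160 CPM (range 11813–66468), so the ranges overlapped at both ages. Between the P40 eyes, 2 of 6 macrophage and 1 of 6 fibroblast markers rose, and none of these fell. None of the cone, rod, or RPE markers was at 0 in all libraries. The part of all these markers in the results on the 10 genes was not tested. In such bulk RNA, fewer cells of a type and less RNA per cell cannot be told apart.

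*Me1* was the only member that passed edgeR's test between the eyes. It was also, of those with a promoter window, the only one with an antioxidant response element around its start, so that stretch is shown. Promoter windows running 250 bases before to 50 bases after a RefSeq start (GRCm38.p6) were given for 8 of the 10 members, in 10 windows. They were searched on both strands for the core of the antioxidant response element, TGACNNNGC, for the AP-1 site, TGANTCA, and for the C/EBP-ATF element, TGATGNAA. The response element and the AP-1 site were each found in the *Me1* window alone, at the same place, since the letters overlap. The element began 6 bases before the start and was read on the strand of the gene. The 30 bases around it lie at chr9:86695900-86695929 on the minus strand, inside exonic 5′ UTR of *Me1* as GENCODE draws the gene, with the element in capitals.

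Me1 start site: atgccgccgTGACTCAGCgcttctcgcggg

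The element's core was present in 12.4% of the 32851 promoter windows of this length, the AP-1 site in 7.81%, and the C/EBP-ATF element in 3.97%. Among the members the core was in 1 of 10 windows, near the share of all windows, and sequence outside the windows was not searched. The C/EBP-ATF element was found among the members in *Me3* alone, 34 bases before its start on the opposite strand. A match describes letters and not a bound site.

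By edgeR's test between the eyes, 1 of the 10 members rose and none fell at each age. At P20 that member was *Me1*, and 3.41% of the 16303 genes tested passed the threshold (an adjusted *P* value under 0.05), 2.93% rising and 0.485% falling. At P40 it was again *Me1*, and 4.57% of 16686 genes passed, 3.33% rising and 1.23% falling. With DESeq2, *Nnt* and *Aldh1l1* also rose and *Mthfd2* fell at P20. With limma voom, *Nnt* and *Aldh1l1* also rose at P20 and *Aldh1l1* at P40. Both methods also called more genes in all, as given at the end. The median log2 fold change of the members was 0.23 at P20 and 0.28 at P40, against −0.04 and −0.03 over all genes tested. With age, 1 member, *H6pd*, fell in control eyes, where 14.8% of 16832 genes passed, 8.34% rising and 6.42% falling. No member passed in Nrf2 eyes by edgeR's test, where 0.502% of 16745 genes did so (0.167% rising and 0.334% falling). There 3 members had an unadjusted *P* value under 0.05 (25.8% of all genes). With DESeq2 2 members passed (*H6pd* and *Mthfd2*), and with limma voom 3 (*Me2*, *H6pd*, and *Nnt*). Nor did any member pass, with edgeR, DESeq2, or limma voom, when the Nrf2 effect at P20 was subtracted from that at P40. With edgeR, 1 of 17959 genes passed in that comparison (0.00557%), and 1 member had an unadjusted *P* value under 0.05 (2.39% of all genes).

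**Figure D1:**
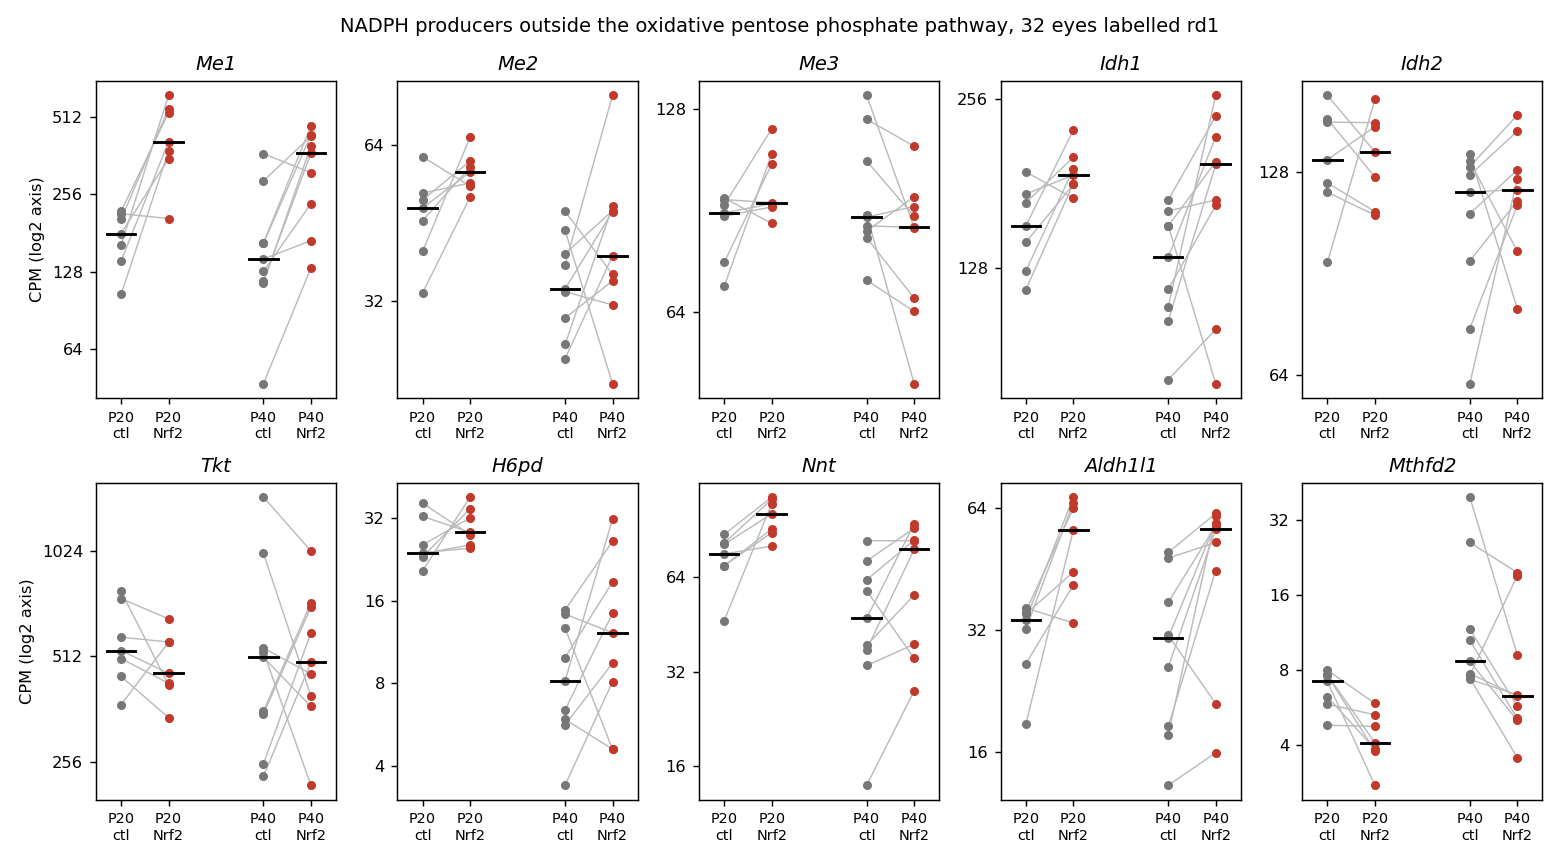
Level of each of the 10 genes in CPM on a log2 axis, by age and eye, with 1 point per eye, a grey line joining the eyes of a mouse, and a black bar at the group median. *Me1* was higher in the Nrf2 eye of 6 of 7 mice at P20 and 8 of 9 mice at P40, and every P40 control eye lay below every P20 control eye for *H6pd*. The share of all genes separated in this way is not given.

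To compare levels between genes, CPM was divided by the length of the longest coding transcript. In P20 control eyes, *Tkt* stood highest at 176 ± 47.0 CPM per kb (SD, n = 7) and above *Idh2* in 7 of 7 eyes. *Idh2* (77.1 ± 14.2), *Idh1* (66.3 ± 11.3), and *Me1* (53.3 ± 12.9) followed, and their ranges over eyes overlapped. A lower tier held *Nnt* (21.1 ± 3.90), *Me3* (19.3 ± 2.15), and *Me2* (17.9 ± 3.32), again with overlapping ranges. *Aldh1l1* (7.48 ± 1.54) was below *Me2* in 7 of 7 eyes, and *H6pd* (5.58 ± 1.19) and *Mthfd2* (3.24 ± 0.560) were lowest. By the longest transcript, *Me1* moved to the second place in P20 Nrf2 eyes at 132 ± 43.0 CPM per kb, above *Idh1* in 6 of 7 eyes and below *Tkt* in 5 of 7. *Mthfd2* and *H6pd* changed places at P40, where *Mthfd2* was above *H6pd* in 9 of 9 control eyes and in 4 of 9 Nrf2 eyes. Using the median length of the coding transcripts instead raised *Idh1*, whose transcripts differ most in length, to the second place in P20 control eyes and to the first place, above *Tkt*, in Nrf2 eyes of both ages. *Me1* then took the third place in P20 Nrf2 eyes and the fourth in P40 Nrf2 eyes.

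**Figure D2:**
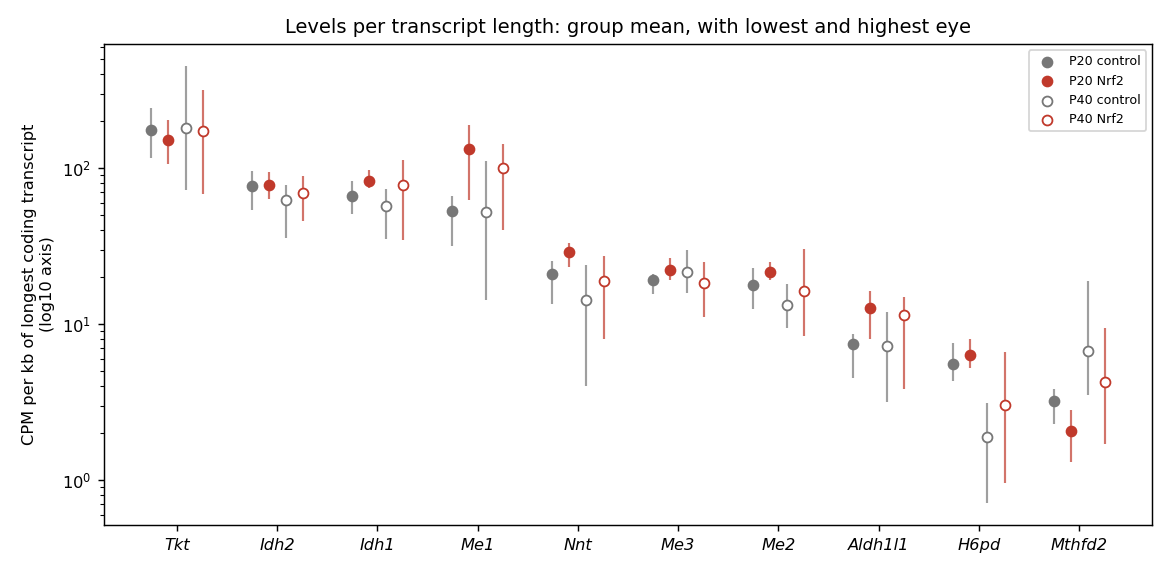
Level per transcript length in CPM per kb on a log10 axis, with genes ordered by their mean in P20 control eyes. Points are group means and lines run from the lowest to the highest eye. The 3 tiers, from *Tkt* to *Me1*, from *Nnt* to *Me2*, and from *Aldh1l1* to *Mthfd2*, span 176 to 3.24 CPM per kb in P20 control eyes.

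*Me1* (ENSMUSG00000032418, chr9:86581371-86695953, GRCm38, minus strand) encodes the cytosolic malic enzyme, which turns malate into pyruvate and makes NADPH. An antisense gene, *A330041J22Rik*, overlaps it by 494 bases at its start, and whether counting used the strand is not given in the sources used here. Its level in P20 control eyes was lowest at 105 CPM, 180 at the median, and highest at 219.8, and in P20 Nrf2 eyes 206, 410.2, and 620.1 CPM. The Nrf2 eye of mouse 4 was the only one of its group within the control range, and the other Nrf2 eyes, from 352 CPM upward, were above every control eye. *Me1* was 2.40-fold higher in Nrf2 eyes (log2 fold change 1.26, SE 0.22, adjusted *P* = 0.0205), and higher in 6 of 7 pairs, with pair differences on the log2 scale from −0.06 in mouse 4 to 1.93 in mouse 1. Without mice 3 and 4 it was 1.47 (adjusted *P* = 0.00812). The call was lost without any 1 of mice 1, 3, 5, 6, and 7 (1.16 to 1.27, adjusted *P* = 0.0635 to 0.0837), and over all alternatives the adjusted *P* value ran from 3.43e-06 to 0.0837.

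At P40, *Me1* was at 47.2 CPM in the lowest control eye, 144 at the median, and 368 in the highest, and at 133, 369.6, and 473 CPM in Nrf2 eyes. The groups overlapped, chiefly through the control eyes of mice 1 and 9 and the Nrf2 eyes of mice 6 and 8. The gene was 1.99-fold higher in Nrf2 eyes (0.99, SE 0.22, adjusted *P* = 0.0244), in 8 of 9 pairs, and lower in the Nrf2 eye of mouse 1 (−0.24). The call was lost without any 1 of mice 2, 4, 5, 7, and 8 (0.90 to 0.95, adjusted *P* = 0.0644 to 0.0801), without mice 3, 5, 6, and 8, the mice of the 5 libraries with the lowest length slope (0.96, adjusted *P* = 0.229), and in a fit without the mouse as a block (0.90, adjusted *P* = 0.154), with a range over all alternatives of 0.000648 to 0.229. The Nrf2 effect on *Me1* at P40 minus that at P20 was −0.27 (SE 0.33, adjusted *P* = 1.00). *Me1* in control eyes had a log2 fold change of 0.00 (SE 0.30) from P20 to P40.

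Reads of *Me1* can also match *Gm7049*, a processed pseudogene whose transcript was 98.5% identical to that of *Me1* over 1638 aligned bases. In each of the 32 libraries *Gm7049* held between 7.23% and 14.3% of the reads of both genes together. On the log2 scale *Gm7049* differed between the P20 eyes by 1.23, with an SE of 0.21 (adjusted *P* = 0.0205), and between the P40 eyes by 0.94, with an SE of 0.26 (adjusted *P* = 0.0679). With both genes summed into 1 row, the values were 1.26 (adjusted *P* = 0.0212) and 0.99 (adjusted *P* = 0.0267), and both calls were made again. A noncoding gene, *Gm48795*, was 98.7% identical to *Me1* over 1159 aligned bases and had no row, so it could not be summed. *Gm38230* lies over 1159 bases of *Me1* on the same strand, so reads from the overlap could belong to either.

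*Me2* (ENSMUSG00000024556) and *Me3* (ENSMUSG00000030621, chr7:89632392-89854359, plus strand) encode the mitochondrial malic enzymes, the first using mainly NAD and the second NADP. *Me2* was at 33.3, 48.4, and 60.7 CPM (lowest, median, highest) in P20 control eyes and at 50.8, 56.7, and 66.2 CPM in P20 Nrf2 eyes. At P40 it was at 24.9, 33.8, and 47.7 CPM in control eyes and at 22.3, 39.1, and 79.6 CPM in Nrf2 eyes. The ranges overlapped at both ages. The log2 fold change between the eyes was 0.27 with an SE of 0.14 at P20 (adjusted *P* = 0.339) and 0.20 with an SE of 0.20 at P40 (adjusted *P* = 0.808). *Me3* had the lowest CV of the members over P20 control eyes (11.1%), at 70.0, 89.9, and 94.5 CPM, and was at 86.7, 93.0, and 119.7 CPM in P20 Nrf2 eyes. At P40, *Me3* was at 71.4, 88.6, and 134 CPM in control eyes and at 50.1, 85.5, and 113 CPM in Nrf2 eyes. The Nrf2 eye was the higher one in 5 of 7 mice at P20 (log2 fold change 0.19 with an SE of 0.11, adjusted *P* = 0.388) and in 2 of 9 mice at P40 (−0.28 with an SE of 0.13, adjusted *P* = 0.417). The difference between these effects, −0.46 (SE 0.18), had the smallest unadjusted *P* value of the 10 members (0.0184) and an adjusted *P* value of 1.00.

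Taken per transcript length, *Me1* made up 58.2% ± 7.38 (SD, n = 7) of the malic enzyme RNA in P20 control eyes and 73.7% ± 6.42 in P20 Nrf2 eyes. At P40 the share was 56.5% ± 10.9 (n = 9) in control eyes and 72.6% ± 7.75 in Nrf2 eyes. The share was higher in the Nrf2 eye of 6 of 7 mice at P20 and of 9 of 9 mice at P40, including mouse 1, whose *Me1* level itself was lower in the Nrf2 eye. Mouse 4 at P20 was the exception, with a difference of −4.10 percentage points between the Nrf2 and the control eye.

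*Idh1* (ENSMUSG00000025950, chr1:65158616-65186500, minus strand) encodes the NADP-dependent isocitrate dehydrogenase of cytosol and peroxisomes. It was at 117, 152, and 189.8 CPM in P20 control eyes and at 171, 187, and 225 CPM in P20 Nrf2 eyes, and at 81.2, 134, and 169 CPM and 79.9, 196, and 259 CPM in the corresponding groups at P40. The Nrf2 eye was the higher one in 6 of 7 and in 8 of 9 mice, but the ranges overlapped and no call was made (0.32 on the log2 scale with an SE of 0.13 for P20, adjusted *P* = 0.234, and 0.37 with an SE of 0.19 for P40, adjusted *P* = 0.474). Mouse 6 was the exception at both ages, and these are different animals. *Idh2* (ENSMUSG00000030541, chr7:80094846-80115392, minus strand) encodes the mitochondrial enzyme. It was at 94.0, 133, and 166 CPM in P20 control eyes and at 110.5, 137, and 164 CPM in P20 Nrf2 eyes, for a log2 fold change of −0.00 with an SE of 0.14 (adjusted *P* = 0.997). At P40 it was at 62.1, 119.6, and 136 CPM in control eyes and at 80.2, 120.5, and 155 CPM in Nrf2 eyes, for a log2 fold change of 0.11 with an SE of 0.17 (adjusted *P* = 0.895). Per length of the longest coding transcript, *Idh1* made up 46.3% ± 6.68 of the RNA of both genes in P20 control eyes and 51.8% ± 4.35 in P20 Nrf2 eyes, and 47.7% ± 3.81 and 52.1% ± 6.55 at P40. These shares depend on the length used. By the median length of the coding transcripts, *Idh1* was above *Idh2* in P20 control eyes, with means of 202 and 126 CPM per kb. From P20 to P40, *Idh1* and *Idh2* had log2 fold changes of −0.17 (SE 0.16) and −0.24 (SE 0.17) in control eyes, neither past the threshold.

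*Tkt* (ENSMUSG00000021957, chr14:30548359-30574720, plus strand) encodes transketolase, which recycles pentoses back to glycolysis and makes no NADPH itself. *Tkt* was at 373, 532, and 786 CPM in P20 control eyes and at 343, 458, and 656 CPM in P20 Nrf2 eyes. At P40 the control eyes ran from 233 through 509 to 1458 CPM and the Nrf2 eyes from 219.7 through 492 to 1024 CPM, and mouse 8 had the highest value of both groups. The Nrf2 eye was higher in 1 of 7 mice at P20 (−0.22 on the log2 scale with an SE of 0.18, adjusted *P* = 0.551) and in 4 of 9 at P40 (0.01 with an SE of 0.32, adjusted *P* = 0.995), with pair differences at P40 from −1.35 in mouse 4 to 1.24 in mouse 9.

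*H6pd* (ENSMUSG00000028980, chr4:149979475-150009023, minus strand) encodes hexose-6-phosphate dehydrogenase, which makes NADPH inside the endoplasmic reticulum for 11β-hydroxysteroid dehydrogenase 1. In control eyes it was at 20.6, 23.9, and 36.1 CPM at P20 and at 3.39, 8.14, and 14.8 CPM at P40. The ages did not overlap in control eyes, and the share of all genes separated in this way is not given here. Of all genes, 14.8% passed the threshold in that comparison, 6.42% falling. *H6pd* fell to 0.350-fold (log2 fold change −1.51, SE 0.25, adjusted *P* = 0.00498). In Nrf2 eyes it was at 24.8, 28.3, and 38.1 CPM at P20 and at 4.59, 12.2, and 31.7 CPM at P40, where the Nrf2 eyes of mice 1 and 2 overlapped the P20 range. The log2 fold change with age in Nrf2 eyes was −1.05 (SE 0.33, adjusted *P* = 0.110). Between the eyes it was 0.18 (SE 0.16, adjusted *P* = 0.602) at P20 and 0.51 (SE 0.32, adjusted *P* = 0.601) at P40, and the difference of these effects, 0.35 (SE 0.39), had an adjusted *P* value of 1.00. *Hsd11b1*, the gene of the enzyme that *H6pd* supplies, was between 0.752 and 7.91 CPM in all 32 eyes.

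The level of *H6pd* ran with the length slope of the library. Across the 32 libraries their correlation was 0.86, and it was 0.83 over the 18 P40 libraries and −0.43 over the 14 P20 libraries, given as descriptions of libraries that differ in depth and RNA. The transcript of *H6pd*, at 4745 bases the longest among the members, is close in length to that of *Me3* (4485 bases), whose correlation was 0.46 across all libraries, 0.62 over the P40 libraries, and −0.59 over the P20 libraries. With an offset for transcript length and GC content in each library, the fall of *H6pd* with age in control eyes was −1.04 (SE 0.18, adjusted *P* = 0.00803). Without P40 mice 3, 5, 6, and 8 it was −1.31 (adjusted *P* = 0.0181). That set of mice was chosen over the libraries of both eyes. Every control-eye fit without it therefore kept the P40 control eyes of mice 2 and 7, with slopes of −0.246 and −0.177. The control eye of mouse 6, with a slope of 0.0050, was left out. Without P20 mice 3 and 4 the fall of *H6pd* was −1.46 (adjusted *P* = 0.0304). It kept its call in 16 of 16 fits that left out 1 eye, and its adjusted *P* value ran from 2.06e-06 to 0.0542 over all alternatives. In Nrf2 eyes the change of *H6pd* with age passed with DESeq2 (−1.06, adjusted *P* = 0.0312) and limma voom (−1.02, adjusted *P* = 0.00699). It did not pass with the length and GC offset (−0.80, adjusted *P* = 0.0833) or without P40 mice 3, 5, 6, and 8 (−0.57, adjusted *P* = 0.458). Fibroblast markers fell with age in control eyes as well, 4 of 6 of them, from a median sum of 405 CPM to 275 CPM (ranges 107–665 and 84.2–460.5), and their part in this result was not tested.

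**Figure D3:**
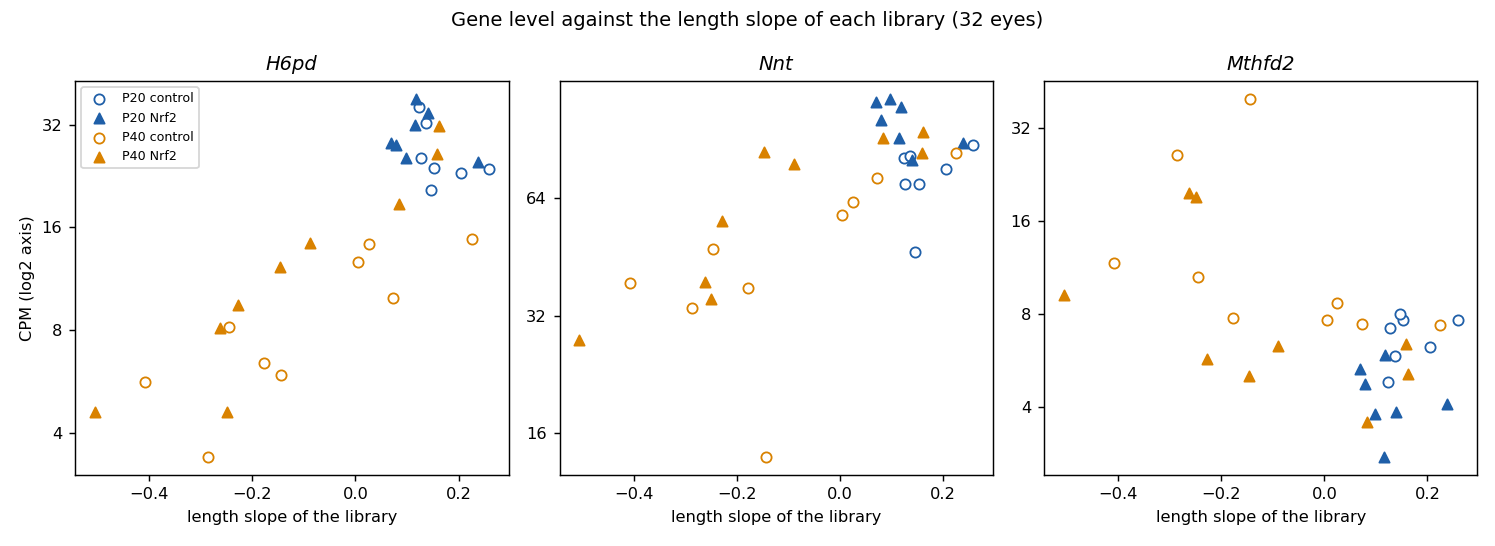
Level of *H6pd*, *Nnt*, and *Mthfd2* in CPM on a log2 axis against the length slope of the library, with 1 point per eye, P20 in blue, P40 in orange, control eyes open, and Nrf2 eyes filled. P40 libraries spread to slopes of −0.506, and over all 32 libraries the correlation with the slope was 0.86 for *H6pd*, 0.72 for *Nnt*, and −0.58 for *Mthfd2*, whereas within the 14 P20 libraries it had the other sign (−0.43, −0.31, and 0.30).

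*Nnt* (ENSMUSG00000025453, chr13:119335448-119408997, minus strand) encodes the nicotinamide nucleotide transhydrogenase of the inner mitochondrial membrane, which uses the proton gradient to reduce NADP. The C57BL/6J reference lacks part of this gene, so reads were counted on the exons that the reference retains, and another Ensembl entry with this symbol had no row in the table. *Nnt* was at 46.5, 75.8, and 87.5 CPM in P20 control eyes and at 80.3, 102, and 115 CPM in P20 Nrf2 eyes. The ranges overlapped, but the Nrf2 eye was the higher one in 7 of 7 mice. The log2 fold change was 0.44 (SE 0.13) with an adjusted *P* value of 0.113, so *Nnt* did not pass the threshold. It passed with DESeq2 (0.45, adjusted *P* = 0.0225) and limma voom (0.38, adjusted *P* = 0.0318). Without mouse 4 it also passed (0.48, adjusted *P* = 0.0465, with a range over all alternatives of 0.0225 to 0.2696), but not without mice 3 and 4 (0.52, adjusted *P* = 0.116). At P40 the control eyes were at 13.9, 47.3, and 83.5 CPM and the Nrf2 eyes at 27.8, 78.4, and 94.5 CPM, with the Nrf2 eye higher in 7 of 9 mice (0.39, SE 0.18, adjusted *P* = 0.392). With age, *Nnt* had log2 fold changes of −0.52 (SE 0.25, adjusted *P* = 0.1503) in control eyes and −0.59 (SE 0.22, adjusted *P* = 0.127) in Nrf2 eyes. Its correlation with the length slope was 0.72 across the 32 libraries and −0.31 over the 14 P20 libraries, and without P40 mice 3, 5, 6, and 8 the changes with age were −0.28 and −0.23.

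*Aldh1l1* (ENSMUSG00000030088, chr6:90486427-90600203, plus strand) encodes the cytosolic 10-formyltetrahydrofolate dehydrogenase, which makes NADPH as it oxidizes a formyl group to CO2, and the gene also marks astrocytes. It was at 18.8, 34.0, and 36.3 CPM in P20 control eyes and at 33.4, 56.4, and 68.1 CPM in P20 Nrf2 eyes. As for *Me1*, the Nrf2 eye of mouse 4 was the only one of its group within the control range. The Nrf2 eye exceeded its fellow in 6 of 7 mice, and the log2 fold change of 0.74, with an SE of 0.18, fell short of the threshold (adjusted *P* = 0.0671). It passed without mouse 4 (0.86, adjusted *P* = 0.0140) and in a fit without the mouse as a block (0.75, adjusted *P* = 0.0182). It also passed with DESeq2 (0.76, adjusted *P* = 0.00514) and limma voom (0.75, adjusted *P* = 0.0108). Without mice 3 and 4 it did not pass (0.84, adjusted *P* = 0.0576), and the range over all alternatives was 0.00514 to 0.205. At P40 the control eyes were at 13.3, 30.7, and 49.8 CPM and the Nrf2 eyes at 15.97, 56.9, and 62.1 CPM, with overlap through the Nrf2 eyes of mice 5, 6, and 8. There the Nrf2 eye was above its fellow in 8 of 9 mice, with a difference of 0.61 on the log2 scale (SE 0.22) that did not pass (adjusted *P* = 0.191). It passed with limma voom (0.76, adjusted *P* = 0.0301), and the range over all alternatives was 0.0301 to 0.407. Of 6 markers of Müller glia and astrocytes, none passed at P20 and 1, *Rlbp1*, which RPE also makes, fell at P40. *Gfap*, an astrocyte filament gene, was between 0.762 and 132 CPM over the eyes, with a lower median in Nrf2 than in control eyes (17.4 against 50.4 CPM at P20, 2.32 against 26.1 CPM at P40). An annotated noncoding gene, *Gm45901*, lies over 33054 bases of *Aldh1l1* on the same strand, so reads from the overlap could belong to either.

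*Mthfd2* (ENSMUSG00000005667, chr6:83305691-83325908, minus strand) encodes the mitochondrial methylenetetrahydrofolate dehydrogenase that makes NADH or NADPH and is a known target of the integrated stress response. It was the member with the lowest counts, between 79 and 700 reads per library. *Mthfd2* was at 4.80, 7.19, and 7.98 CPM in P20 control eyes and at 2.75, 4.07, and 5.87 CPM in P20 Nrf2 eyes. The Nrf2 eye was the lower one in 7 of 7 mice, although the ranges overlapped. The difference was −0.68 on the log2 scale (SE 0.23, adjusted *P* = 0.175), not past the threshold. It passed with DESeq2 (−0.66, adjusted *P* = 0.0331) but not with limma voom (−0.63, adjusted *P* = 0.0879). At P40 the control eyes were at 7.34, 8.66, and 39.7 CPM and the Nrf2 eyes at 3.55, 6.30, and 19.7 CPM. The highest values were the control eyes of mice 8 and 3 and the Nrf2 eyes of mice 3 and 6. The Nrf2 eye was lower in 8 of 9 mice (log2 fold change −0.69, SE 0.31, adjusted *P* = 0.370), and without mouse 6, the exception, the value was −0.92 (adjusted *P* = 0.0390, with a range over all alternatives of 0.0390 to 0.656). With age, *Mthfd2* had log2 fold changes of 1.16 in control eyes (SE 0.39, adjusted *P* = 0.0553) and 1.12 in Nrf2 eyes (SE 0.39, adjusted *P* = 0.116). The change in control eyes passed without the control eye of any 1 of P40 mice 1, 4, 6, and 9 (1.22 to 1.25, adjusted *P* = 0.0305 to 0.0470), within a range of 0.0163 to 0.329 over all alternatives. Without P40 mice 3, 5, 6, and 8, these changes were 0.31 and 0.26.

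**Figure D4:**
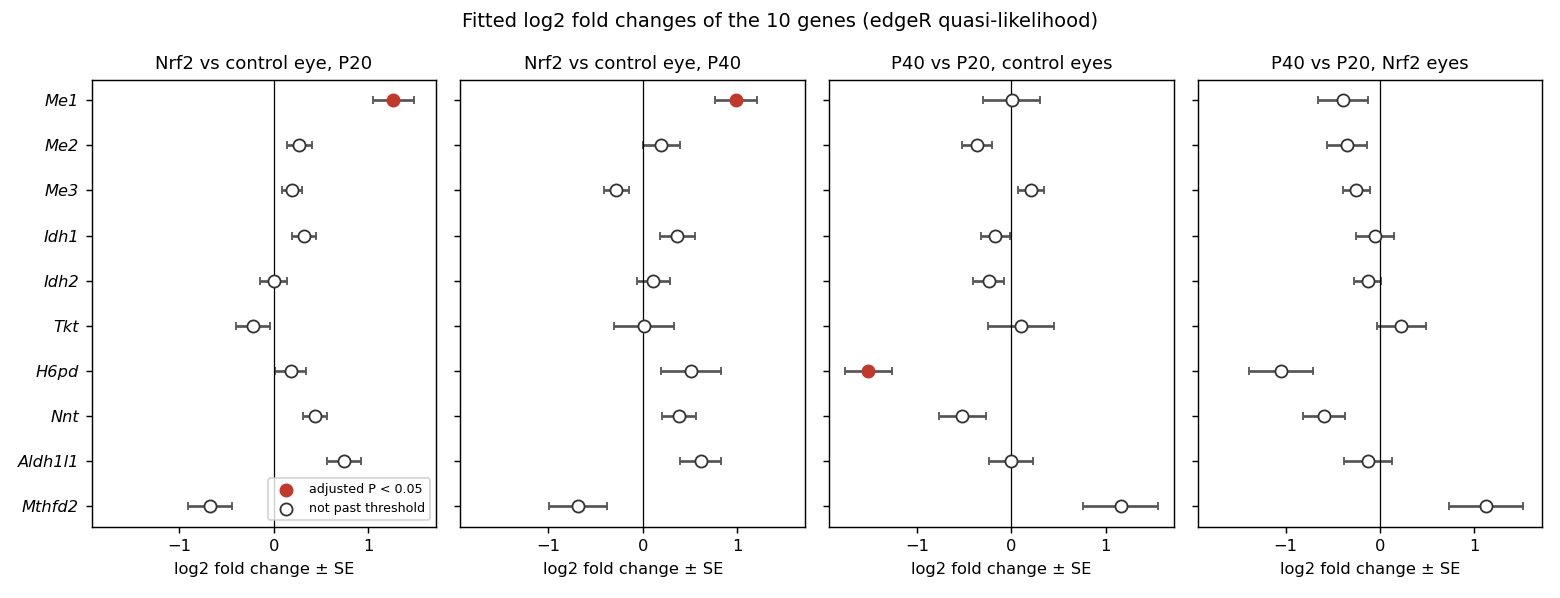
Fitted log2 fold changes of the 10 genes with their SE in the comparisons of eyes at each age and of ages within each eye, with red points past an adjusted *P* value of 0.05. *Me1* passed between the eyes at both ages (1.26 and 0.99), and *H6pd* passed with age in control eyes (−1.51).

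Within the Nrf2 eyes of 1 age, the level of each gene was set against that of the transgene on the log2 scale (20 relations, two-sided exact permutation tests). At P20 (n = 7), *Me1* had r = 0.968 (exact *P* = 0.000992, adjusted 0.0119) and rho = 0.929 (exact *P* = 0.00675, adjusted 0.0450). *Aldh1l1* had r = 0.891 (exact *P* = 0.00119, adjusted 0.0119) and *Nnt* r = 0.845 (exact *P* = 0.00675, adjusted 0.0450), each with rho = 0.929. The Nrf2 eye of mouse 4 was lowest in the transgene and in these 3 genes. When mice 1 and 4, the farthest from the median transgene level, were left out, r was 0.947 for *Me1*, 0.875 for *Aldh1l1*, and 0.726 for *Nnt* (n = 5), with exact permutation *P* values of 0.0417, 0.108, and 0.217 (adjusted 0.295, 0.433, and 0.571). With 5 eyes no single relation could pass after adjustment over 20, so whether the calls rest on the eyes left out could not be tested. At P40 (n = 9), no relation passed. *Me1* had r = 0.716 (exact *P* = 0.0301, adjusted 0.121) and rho = 0.650, and *Aldh1l1* had r = 0.758 (exact *P* = 0.0214, adjusted 0.107) and rho = 0.617. Without mice 1 and 8 these were r = 0.548 and 0.733 (n = 7). *Nnt* at P40 had r = 0.490. Levels of the members and of the transgene came from the same libraries and share their depth and RNA.

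**Figure D5:**
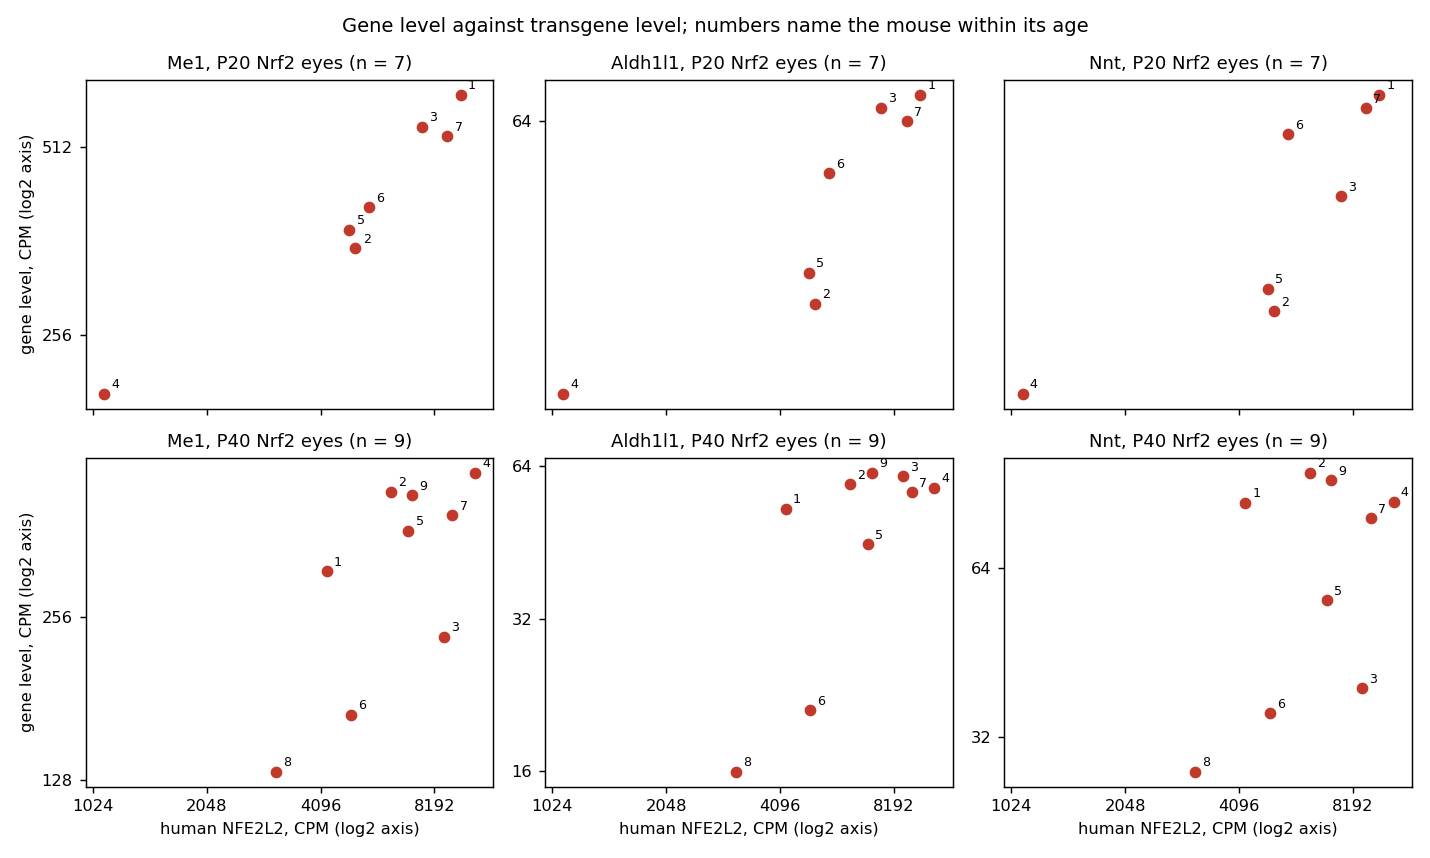
Level of *Me1*, *Aldh1l1*, and *Nnt* against human *NFE2L2* in the Nrf2 eyes of each age, both in CPM on log2 axes, with 1 point per eye and the number of the mouse beside it. At P20 the eye of mouse 4 lies apart at 1096 CPM of the transgene with the lowest level of all 3 genes. At P40 the eyes of mice 6 and 8 are lowest for these genes.

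After subtraction of the group means, the genes most like each member over the 32 libraries, among 11782 genes, were taken as a description. *Me1* was closest to *Slc16a9* (r = 0.95), *Gm7049* (0.95), and *Cat*, the catalase gene (0.95). *Nnt* was closest to *Spon1* (0.97), *Acp2* (0.96), and *Gaa* (0.96), and *Aldh1l1* to *Nacc2* (0.93) and *Ehd3* (0.92). *H6pd* was closest to *Mbtps1* (0.94), *Tkt* to *Ghr* (0.95), *Idh1* to *M6pr* (0.94), *Idh2* to *Gpr180* (0.89), *Me3* to *Slc9a3r1* (0.89), and *Mthfd2* to *Nsd1* (0.89), whereas *Me2* had no gene above 0.71 (*Tec*). Among the members, *Me1* and *Nnt* had r = 0.88, *Nnt* and *Aldh1l1* 0.86, and *Me1* and *Aldh1l1* 0.84, while *Mthfd2* ran against *Nnt* (−0.77). All these values share the libraries and their length slopes.

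The enzymes around the members are given from lists. In the oxidative pentose phosphate pathway, 2 of 3 genes rose at both ages, *G6pdx*, its first enzyme (log2 fold changes 1.53, with an SE of 0.23 and adjusted *P* = 0.0136, and 1.69, with an SE of 0.25 and adjusted *P* = 0.00191), and *Pgd*, which makes NADPH in a later step (2.04, SE 0.25, adjusted *P* = 0.00921, and 2.61, SE 0.30, adjusted *P* = 0.000294). Of the other non-oxidative genes, 3 of 5 could be tested and 1 rose at both ages, *Taldo1*, the transaldolase that works with *Tkt* (1.80, SE 0.25, adjusted *P* = 0.0111, and 1.68, SE 0.28, adjusted *P* = 0.00420). Of 2 NAD kinases, which make NADP from NAD, the mitochondrial *Nadk2* rose at both ages (1.17, SE 0.20, adjusted *P* = 0.0192, and 1.43, SE 0.26, adjusted *P* = 0.00683).

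Of 14 genes that supply malate, citrate, or glutamine carbon, 2 rose at P20 and 1 at P40. *Slc25a1*, the mitochondrial citrate carrier, rose at both ages (0.76, SE 0.13, adjusted *P* = 0.0215, and 0.89, SE 0.18, adjusted *P* = 0.0131), and *Pcx*, pyruvate carboxylase, rose at P20 (1.00, SE 0.21, adjusted *P* = 0.0384). None of the 14 passed with age in control eyes. None of the 3 subunits of the NAD-linked isocitrate dehydrogenase passed in any comparison within an age or between the ages.

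Of 8 other folate genes, none passed between the eyes at P20 and 1 rose at P40, *Mthfd1l*, a mitochondrial formate-producing enzyme (1.04, SE 0.26, adjusted *P* = 0.0440). With age in control eyes, *Mthfd2l*, the close relative of *Mthfd2*, rose (0.89, SE 0.28, adjusted *P* = 0.0443) and *Shmt1*, the cytosolic serine hydroxymethyltransferase, fell (−0.92, SE 0.24, adjusted *P* = 0.0277). Of 3 serine synthesis genes, none passed between the eyes, and *Psph* rose with age in control eyes (0.73, SE 0.17, adjusted *P* = 0.0201). Of 16 enzymes that use NADPH, 6 rose and none fell at each age. The largest of these were *Txnrd1*, cytosolic thioredoxin reductase (3.53, SE 0.37, and 3.98, SE 0.37), *Cbr3*, a carbonyl reductase (3.39, SE 0.36, and 3.49, SE 0.17), and *Blvrb*, biliverdin reductase B (3.36, SE 0.38, and 3.89, SE 0.25). Over the 16 enzymes, the median was 0.40 on the log2 scale at P20 and 0.19 at P40.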

How the data were processed

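According to the methods, the authors aligned reads with STAR to mm10 and Ensembl 91 and counted them with featureCounts, and quantified them in parallel with Salmon (0.9.1 in the submitters' processing notes) for DESeq2. The deposited table holds estimated counts per gene, rounded by the authors and not normalized, and does not name the counter. Its 34453 rows included 34401 with a symbol and 4268 without any count. No column lay outside the 32 samples.

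Counts were tested in R 4.3.3 with edgeR 4.0.16 (filterByExpr, TMM, quasi-likelihood test without robust dispersion) over all genes, with Benjamini-Hochberg adjustment and a threshold of 0.05. The mouse was a block between the eyes and in the difference of effects. No term for the 2 sequencing runs named in the labels could be fitted, since libraries are not assigned to them. The SE is the log2 fold change divided by the square root of F. CPM used TMM library sizes, and pair differences and relations used log2 CPM with a prior count of 2. DESeq2 1.42.0, limma 3.58.1 (voom with quality weights), RLE scaling, no filter, a filter of 10 counts in every library, fits with or without a block, 1 fit over all eyes, and leaving out each mouse or eye were alternatives. A length and GC offset, leaving out P40 mice 3, 5, 6, and 8, and summing *Me1* with *Gm7049* were added after the data were seen. Transcripts of the members were compared with all GENCODE vM21 transcripts in BLAST 2.17.0 (at least 90% identity over 500 bases). The test was run first on simulated data.

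Eyes of a mouse are paired by the labels. As a check of the pairing, deviations from the group means were correlated over genes. The mean r for the eyes of 1 mouse was 0.00428 (P20) and 0.112 (P40), and for eyes of different mice 0.00231 and −0.00371. At P20 these means were close, so the check did not show the pairing there. At P40, r for the eyes of 1 mouse ran from −0.486 to 0.700 and was over 0.1 in 4 of 9 pairs. The check therefore did not show the pairing of each mouse at P40 either. By the labels the pairs are taken as separate mice. *P* values between the eyes and for the difference of effects measure the spread of pair differences over mice. Those between the ages measure the spread between mice. All 10 members are named, as are up to 3 called genes of each pathway list with the largest change, and, of the 3 genes most alike to each member, between 1 and 3. The others are not reported here. Members and lists were chosen with earlier results of these data known.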

Additional observations from a re-analysis of the deposited data

Results flagged for a closer look

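In the P40 Nrf2 eyes, mouse 3 had the highest *Me2* level at 79.6 CPM, with the next eye at 48.7 CPM, a gap that was 0.538 of the range of the 9 eyes. It was noted because 1 eye lay far from the others. The same library had the highest summed level of 5 muscle markers among these eyes (1428 CPM, against a group median of 112) and of 4 blood markers (4216 CPM, against 498), and their part in the *Me2* value was not tested. Of 40 groups of eyes examined (10 genes in 4 groups), this was the only one noted, and chance flags about 1 in 20 groups.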

How the results depend on the processing

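Between the eyes at P20, 556 genes and 1 member passed. With DESeq2 1951 genes and 4 members passed (*Me1*, *Nnt*, *Aldh1l1*, and *Mthfd2*), with limma voom 2605 genes and 3 members, and without a filter 348 genes. Leaving out 1 mouse gave 111 to 1999 genes and 0 to 3 members, the most without mouse 4 and the fewest without mouse 7, and 143 to 228 genes without mouse 1, 3, 5, or 6. At P40, 762 genes and 1 member passed, against 1380 genes with DESeq2, 1327 genes and 2 members (*Me1* and *Aldh1l1*) with limma voom, 494 genes and 0 members without mice 3, 5, 6, and 8, and 0 to 2 members when 1 mouse was left out. With age in control eyes, 2483 genes and 1 member passed, against 4330 genes and 2 members with DESeq2, 3747 genes (1625 rising and 2122 falling) and 2 members with limma voom, 914 genes without a filter, 2 members with at least 10 counts in every library, 158 genes without P20 mice 3 and 4, 630 genes without P40 mice 3, 5, 6, and 8, and 1349 genes with the length and GC offset. Leaving out 1 eye gave 473 to 4273 genes, the most without P40 mouse 1 and the fewest without P20 mouse 5, and 1 to 2 members. With age in Nrf2 eyes, 84 genes and no member passed, against 1595 genes and 2 members with DESeq2, 2213 genes and 3 members with limma voom, 31 genes without a filter, 20 without P20 mice 3 and 4, 36 without P40 mice 3, 5, 6, and 8, and 21 to 190 when 1 eye was left out, the most without P40 mouse 2 and the fewest without P20 mouse 6. For the difference of effects, 1 gene passed, 12 with DESeq2 and 0 without P40 mice 3, 5, 6, and 8. Of the relations to the transgene, 3 passed and 0 without the 2 farthest eyes, where 5 eyes at P20 were too few for a single relation to pass after adjustment. The cause of these differences was not tested.

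Without the mouse as a block, the pairing of eyes being ignored, 1093 genes and 2 members passed at P20 and 716 genes and 0 members at P40. Between the ages, replicate numbers name different mice and share only a number. With that number as a block, 191 genes and 0 members passed in control eyes and 3 genes in Nrf2 eyes, and *H6pd* had −1.61 (adjusted *P* = 0.0542) in control eyes.

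Of 1095 log2 fold changes of single members under alternatives, 976 kept direction and side of the threshold, 22 came to pass it, 13 no longer did, and 84 had the other sign, none of them past the threshold. Those of the other sign were, between the eyes at P20, *H6pd* with limma voom (−0.013) and *Idh2* with DESeq2 (0.012), RLE (0.013), no filter (0.00042), without mice 3 and 4 (0.0096), 1 fit over all eyes (0.030), and the length and GC offset (0.052). Between the eyes at P40 it was *Tkt* without the block (−0.12) and without mice 3, 5, 6, and 8 (−0.011). With age in control eyes they were *Me1* with limma voom (−0.17), no filter (−0.054), the number as a block (−0.086), and *Gm7049* added (−0.0020), *Tkt* with limma voom (−0.052), the number as a block (−0.26), and without P40 mice 3, 5, 6, and 8 (−0.082), and *Aldh1l1* with DESeq2 (0.018), limma voom (0.014), RLE (0.017), without P20 mice 3 and 4 (0.045), without P40 mice 3, 5, 6, and 8 (0.30), and the offset (0.45). With age in Nrf2 eyes they were *Aldh1l1* without P40 mice 3, 5, 6, and 8 (0.10) and with the offset (0.22), *Idh1* with limma voom (0.12) and without these mice (0.035), and *Tkt* with limma voom (−0.0078) and the number as a block (−0.057). For the difference of effects they were *Aldh1l1* with limma voom (0.00033), *Me2* with limma voom (0.19) and without the block (0.010), *Nnt* with limma voom (0.058) and without P40 mice 3, 5, 6, and 8 (0.093), and *Mthfd2* with DESeq2 (−0.028), RLE (−0.028), at least 10 counts (−0.026), without the block (−0.043), and without these mice (−0.033). Left out 1 at a time, mice or eyes moved *Idh2* at P20 from −0.11 to 0.066, *Tkt* at P40 from −0.14 to 0.19, with age in control eyes *Me1* from −0.21 to 0.12, *Tkt* from −0.23 to 0.21, and *Aldh1l1* from −0.15 to 0.087, with age in Nrf2 eyes *Idh1* from −0.13 to 0.042, and in the difference of effects *Me2* from −0.17 to 0.038, *Idh1* from −0.068 to 0.17, *Idh2* from −0.013 to 0.25, *Nnt* from −0.15 to 0.077, *Aldh1l1* from −0.27 to 0.011, and *Mthfd2* from −0.27 to 0.15. Without the 2 farthest eyes, r with the transgene was 0.25 for *Idh2* and −0.42 for *Me2* at P20 and 0.32 for *Tkt* at P40, against −0.33, 0.43, and −0.44. *Mthfd2*, at 79 to 700 reads per library, had the least depth of the members.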
